A study of Mus musculus with 8 samples.

Results

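Gained tiles are stretches of 1 kb in the mouse genome that carried high SOX9 signal in both libraries made 1 day after a spinal cord injury (1 d.p.i.) and little in both libraries from uninjured cords. The genome (build GRCm38, mm10, chromosomes 1 to 19) was divided into 2462755 tiles on a fixed grid, and the coverage of each tile was divided by the mean tile of its library, so that a value of 1 is the average of the genome. A tile was gained when its value was at least 5 in both SOX9 libraries at 1 d.p.i. and at most 1 in both uninjured SOX9 libraries. This chose 76 tiles, 0.00309% of all. The tiles were chosen by the values of the 4 SOX9 libraries, so these values are given as a description. A fit of the same libraries is given further on, and nothing about the gained tiles is read from it.

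SOX9 is a transcription factor of the SOX family that sets the identity of glial progenitors and remains in the nuclei of adult astrocytes and ependymal cells. In CUT&Tag an antibody against the factor tethers a transposase to chromatin, which cuts and tags the DNA close by. AP-1 factors such as JUN and ATF3 are made or activated within hours of tissue damage, and together with SOX9 they are thought to act at enhancers of reactive astrocytes.

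All libraries came from spinal cords of wild-type (WT) C57BL/6 mice, 2 to 6 months old, either uninjured or collected 1 day after a contusion at the mid-thoracic level, and each condition had 1 sample labelled male (M) and 1 labelled female (F). For its sequencing experiments the paper speaks of 2 to 4 pooled animals, of both sexes, in each condition. The number behind each sample is not given in the sources used here, so that n = 2 counts samples and not animals. Nuclei of frozen tissue were sorted on a DNA stain per the labels, which name no marker of a cell type, while the methods refer back to a sort with antibodies to NEUN or SOX10. Which nuclei were kept is thus uncertain, and a change in the share of SOX9-containing nuclei and a change of signal per nucleus cannot be told apart. Part of the nuclei of each sample received the secondary antibody without the SOX9 antibody and served as its control, which gave 4 SOX9 libraries and 4 controls in 4 groups of 2.

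The precision of a tile is set by how few fragments lie behind it. On chromosomes 1 to 19, the SOX9 libraries of uninjured cords had 1824332 (M) and 7068156 (F) fragments and the injured ones 2463775 (M) and 2317198 (F). The controls had 22300 (M) and 45472 (F) fragments before injury and 51460 (M) and 10664 (F) after it. A value of 5 was worth about 5.00 fragments in the M library at 1 d.p.i. and 4.70 in the F library, whereas a value of 1 was worth 0.741 fragments in the uninjured M library and 2.87 in the uninjured F library. In the uninjured M library, 25 of the gained tiles were touched by 1 fragment, 7 by 2 and none by more than 3, since a fragment that only partly overlaps a tile adds less to its value.

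The gained tiles were next set against the reverse class and against swapped labels. Lost tiles, with at least 5 in both uninjured libraries and at most 1 in both libraries at 1 d.p.i., numbered 65 (0.00264% of all). The ratio of gained to lost tiles was 1.17, with an interval of 0.841 to 1.63 from the 95% Wilson interval of the gained share, which covers counting error only. Exchanging the labels so that 1 library of each condition formed the high pair gave 58 tiles (uninjured M with 1 d.p.i. M), 81 (uninjured M with 1 d.p.i. F), 155 (uninjured F with 1 d.p.i. M) and 89 (uninjured F with 1 d.p.i. F). The true labels thus gave fewer tiles than 3 of the 4 mixed pairs, and 76 lay within the range of these pairs. Gained tiles were also a small part of the high tiles. Of 36139 tiles with at least 5 in both libraries at 1 d.p.i., 20227 (56.0%) had at least 5 in all 4 SOX9 libraries and 0.210% were gained, and of 35384 tiles with at least 5 in both uninjured libraries 0.184% were lost. The numbers and the order of the classes changed with the processing. There were 26 gained and 39 lost tiles by fragment midpoints, 337 and 287 with the SOX9 libraries thinned to the smallest, 830 and 769 with tiles of 500 bp, and 9 and 2 with tiles of 2 kb. Leaving out 1 library, which loosens the rule, gave 219 to 2257 gained and 424 to 5560 lost tiles, with ratios of 0.517 and 0.349 without the uninjured M or F library and 2.29 and 2.84 without the M or F library at 1 d.p.i. On a grid shifted by 500 bp there were 58 gained and 77 lost tiles, and with scaling by a trimmed mean of log ratios 57 and 96.

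Most gained tiles lay close to the thresholds. In the M library at 1 d.p.i. their values ran from 5.03 to 14.5 (median 5.79), and in the F library from 5.00 to 33.3 (median 6.04). In uninjured cords the M library had a median of 0 and a highest value of 0.959, with 43 of 76 tiles at 0, and the F library a median of 0.592 and a highest value of 0.989, with 6 tiles at 0. The lower of the values at 1 d.p.i. was between 5 and 6 in 56 tiles and over 7 in 12, and the higher of the uninjured values was over 0.5 in 52 tiles. Only 3 tiles, closest to Cdh4, Lhfpl3 and Ercc6l2, were at 0 in both uninjured libraries. Behind these values stood 503 fragments in the M and 568 in the F library at 1 d.p.i., with a median of 6 fragments per tile in each, and 42 (M) and 180 (F) fragments in uninjured cords. In 3 gained tiles a library at 1 d.p.i. had fragments with fewer than 3 different starts.

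Tiles on either side of each threshold had nearly the same values. Just inside the upper threshold were a tile in an exon of Afg3l2 (chr18:67409001-67410000, lower value at 1 d.p.i. 5.00) and a tile in an intron of Tns3 (chr11:8481001-8482000, 5.02). Just outside it, and otherwise passing, were chr2:165260001-165261000 (5.00, from 4.99918), chr9:61600001-61601000 (4.99537) and chr6:31445001-31446000 (4.98). At the lower threshold, the highest uninjured values among gained tiles were 0.989 in an intron of Galnt7 (chr8:57590001-57591000), 0.959 in an intron of Pip4k2a (chr2:18963001-18964000) and 0.953 at Tns1. Just outside were chr5:135439001-135440000, chr17:50060001-50061000 and chr19:24913001-24914000, each with a higher uninjured value of 1.01. In all, and with those just named included, 276 tiles had a lower value of 4 to 5 at 1 d.p.i. and would have passed otherwise. The same held for 20 tiles with a higher uninjured value of 1 to 1.1.

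Of 12 gene lists for cell types and injury responses, 2 contained a gene within 100 kb of a gained tile whose start site was the nearest of a coding gene. Both were genes of the injury response. The gained tile closest to Serpina3n, which encodes a secreted serine protease inhibitor known as a marker of reactive astrocytes, lay in an exon 1272 bp from the start site (chr12:104408001-104409000). Its values were 0 (M) and 0.180 (F) in uninjured cords against 5.61 (M) and 8.04 (F) at 1 d.p.i., from 0 and 2 fragments against 4 and 7. The tile closest to Atf3, a stress-induced transcription factor that pairs with AP-1 proteins, was intergenic and 1962 bp from the start site (chr1:191220001-191221000). It had 0.764 (M) and 0.463 (F) in uninjured cords against 6.37 (M) and 5.36 (F) at 1 d.p.i., with 8 and 6 fragments, and the M control at 1 d.p.i. held 1 fragment there. Each of these lists thus held 1 of the 76 gained tiles (1.32%), beside 0.0737% of all tiles for the reactive astrocyte list and 0.0671% for the AP-1 and immediate early list. The other 10 lists (astrocyte identity, oligodendrocyte lineage, neuronal, microglia and macrophage, neutrophil and monocyte, endothelial and mural, ependymal, hypoxia and metal stress, matrix and proteoglycan, and cartilage targets of SOX9) had 0 gained tiles, and all 12 had 0 lost tiles. Each of these 10 held only 0.0282% to 0.106% of all tiles, so that the zeros say little about them. The shares of 1.32% rest on 1 tile each, found among 12 lists, and say as little about the reactive astrocyte and the AP-1 and immediate early lists.

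Ranked by the lower of the values at 1 d.p.i., 4 of the 10 highest gained tiles held a processed pseudogene, described further on. Among the other 6, only the tile at Slc10a6, which encodes a transporter of sulfated steroids, covered a start site (chr5:103629001-103630000). Its values were 0 (M) and 0.294 (F) in uninjured cords against 14.5 (M) and 8.49 (F) at 1 d.p.i., from 18 and 8 fragments with as many different starts, and 0 control fragments fell there. A tile in an intron of Fgf2, the gene of a growth factor for glia and vessels (chr3:37360001-37361000), had 0 (M) and 0.305 (F) against 7.43 (M) and 8.69 (F), from 8 and 12 fragments. In both tiles each library at 1 d.p.i. was above both uninjured libraries, as the rule required. The median gained tile had 6 fragments in each library at 1 d.p.i.

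The highest tile of all was intergenic, 155444 bp from Capza3 (chr6:140197001-140198000), with 0.774 (M) and 0.541 (F) in uninjured cords against 14.0 (M) and 10.6 (F) at 1 d.p.i. Its 7 fragments in the M library at 1 d.p.i. had only 2 different starts, and the M control at 1 d.p.i. held 1 fragment. In an intron of Ctnna2, which encodes the neuronal alpha-catenin (chr6:77957001-77958000), the values were 0.932 (M) and 0.602 (F) against 10.0 (M) and 18.1 (F), from 8 and 13 fragments. An intergenic tile 1369464 bp from Pcdh18 (chr3:48385001-48386000) had 0 (M) and 0.866 (F) against 9.40 (M) and 8.27 (F), and 75.2% of its bases were soft-masked as repeats in the reference. Its 7 fragments in the F library at 1 d.p.i. had only 3 different starts, and the uninjured F control held 1 fragment. The last of the 6 lay 19489 bp from Sgms1, the gene of a sphingomyelin synthase (chr19:32408001-32409000), with 0.385 (M) and 0.266 (F) against 7.66 (M) and 7.10 (F). Besides Slc10a6, the only gained tile within 1 kb of a coding start site was at Tns1, which encodes a focal adhesion protein (chr1:74124001-74125000). It had 0.953 (M) and 0.603 (F) in uninjured cords against 5.64 (M) and 6.22 (F) at 1 d.p.i., from 4 and 6 fragments.

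A few other gained tiles are given for their genes and were picked after their values were seen, so they stand for no class of genes. A tile 85184 bp from Sgk1, the gene of a kinase induced by serum and glucocorticoids (chr10:21796001-21797000), had 0 (M) and 0.946 (F) in uninjured cords against 7.06 (M) and 8.99 (F) at 1 d.p.i. A tile 110779 bp from Jun, inside the antisense gene Junos (chr4:95163001-95164000), had 0 (M) and 0.0860 (F) against 8.19 (M) and 5.24 (F). The single fragment of the F control in it shared both ends with a fragment of the F SOX9 library at 1 d.p.i. In Col27a1, a fibrillar collagen gene, an intronic tile 1566 bp from the start site (chr4:63217001-63218000) had 0 (M) and 0.775 (F) against 6.51 (M) and 10.2 (F). In Sparc, the gene of a collagen-binding matrix protein, a tile over an exon (chr11:55405001-55406000) had 0 (M) and 0.657 (F) against 5.20 (M) and 6.01 (F). With trimmed-mean scaling, the tiles near Sgk1 and Jun no longer met the rule, and those in Col27a1 and Sparc still did. All 4 met it by fragment midpoints, whereas the tiles at Serpina3n, Atf3, Capza3, Ctnna2, Sgms1 and Tns1 met it with trimmed-mean scaling but not by midpoints. Only Zfat, a zinc finger gene, was the nearest coding gene of 2 gained tiles, 45000 bp apart, and no gained tiles adjoined each other.

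Most gained tiles lay over 1 kb from a coding start site. For annotation, distance, base content and motifs, all tiles means the 2395765 tiles with at least 900 known bases. By annotation, 2 lay within 1 kb of a coding start site (2.63%), 10 in other exons (13.2%), 27 in introns (35.5%) and 37 between genes (48.7%). Among lost tiles the same classes held 10.8%, 27.7%, 35.4% and 26.2%, and among all tiles 3.71%, 8.41%, 30.6% and 57.3%. Tiles with at least 5 in all 4 SOX9 libraries were different, with 48.7% within 1 kb of a start site. The median distance to a coding start site was 32128.5 bp for gained tiles, 12590 bp for lost tiles and 55796 bp for all tiles, and 21 gained tiles (27.6%) were over 100 kb away, beside 12.3% of lost and 38.6% of all tiles. The median GC content was 48.0% in gained tiles, 50.7% in lost tiles and 41.7% in all tiles, and a median of 17.1%, 14.1% and 24.9% of their bases was soft-masked. Gained tiles lay on 18 of the 19 chromosomes, with 10 on chromosome 2, 9 on chromosome 3 and 0 on chromosome 9. The order against all tiles turned with the definition of a promoter. With a window of 5 kb, 13.2% of gained tiles were promoters, beside 35.4% of lost tiles and 11.5% of all tiles. With start sites of all genes, 21.1% of gained tiles were within 1 kb of a start site, beside 24.6% of lost tiles and 8.95% of all tiles, and 34.2% were intergenic, beside 18.5% and 48.8%.

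Short motifs were searched on both strands of each tile. The SOX letters ACAATG or ACAAAG were found in 61 gained tiles (80.3%), beside 80.8% of all tiles and 67.7% of lost tiles. The AP-1 letters TGANTCA were found in 17 gained tiles (22.4%), beside 26.7% of all tiles and 24.6% of lost tiles, and both kinds together in 16 (21.1%), beside 21.7% and 18.5%. Tiles with at least 5 in all 4 SOX9 libraries had SOX letters in 61.8% and AP-1 letters in 20.7%. Neither share of gained tiles was above that of all tiles, but with soft-masked bases hidden the order turned for SOX, at 68.4% of gained and 62.3% of all tiles, and for both kinds together, at 18.4% and 15.0%. The letters are so short that most tiles hold a SOX match. The other motifs were RUNX (TGTGGT, 56.6% of gained and 53.0% of all tiles), CEBP (TTGCNNAA, 28.9% and 38.6%), STAT (TTCNNNGAA, 18.4% and 32.1%), PU.1 and ETS (GAGGAAG, 19 of the 76 gained tiles and 26.7% of all) and the E-box (CANNTG, 97.4% and 99.4%). With soft-masked bases hidden the order also turned for PU.1 and ETS (18.4% and 16.4%) and the E-box (88.2% and 87.9%). The NFI letters, TTGGC with GCCAA 5 bases on, were found in 0 gained tiles, where the 95% Wilson interval reached 4.81%, and in 0.0619% of all tiles. A match is a description of the sequence and not a bound site, and these motifs can overlap each other.

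Within 200 bp around the highest coverage of the high libraries, those at 1 d.p.i. for gained and the uninjured ones for lost tiles, 21 gained tiles had a SOX match (27.6%) and 6 an AP-1 match (7.89%), beside 15 and 2 of the 65 lost tiles. A single gained tile had both, as did 1 lost tile, and the share over all tiles was not computed for this window. The gained tile lay 22419 bp from Coq2 and had values of 0.811 (M) and 0.277 (F) in uninjured cords against 5.21 (M) and 5.31 (F) at 1 d.p.i. Of the 13 tiles named by rank, start site or gene list, 0 had an AP-1 match within 300 bp around the highest coverage and 5 had a SOX match. No share over other tiles is given for 300 bp, so nothing is read from these counts. The windows below were chosen after the values were seen, to show where such letters fall under the signal, and each holds 200 bases of GRCm38 on the plus strand with the AP-1 or SOX letters in capitals. The Coq2 window is intergenic at chr5:100641447-100641646 and holds TGACTCA and ACAAAG. The Sgk1 window is intergenic at chr10:21796561-21796760 and holds TGACTCA only. The Atf3 window is intergenic at chr1:191220113-191220312 and holds CATTGT, the reverse complement of ACAATG.
Coq2 window: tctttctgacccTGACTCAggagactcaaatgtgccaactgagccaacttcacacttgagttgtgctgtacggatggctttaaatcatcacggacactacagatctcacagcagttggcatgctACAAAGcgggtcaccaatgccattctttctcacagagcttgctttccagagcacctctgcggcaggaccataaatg
Sgk1 window: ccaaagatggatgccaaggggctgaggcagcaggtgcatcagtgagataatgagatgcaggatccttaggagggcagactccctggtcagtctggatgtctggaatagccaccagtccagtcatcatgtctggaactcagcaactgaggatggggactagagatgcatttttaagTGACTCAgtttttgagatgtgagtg
Atf3 window: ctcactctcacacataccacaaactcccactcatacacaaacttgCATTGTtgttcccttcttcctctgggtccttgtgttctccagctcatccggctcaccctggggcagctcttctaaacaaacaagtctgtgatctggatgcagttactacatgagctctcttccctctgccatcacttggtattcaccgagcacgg

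A group of gained tiles shared a feature of sequence. Processed pseudogenes are copies of spliced messenger RNA that were inserted into the genome, and 10 of the 76 gained tiles (13.2%, 95% Wilson interval 7.31% to 22.6%) overlapped an annotated one. This compares with 0 of 65 lost tiles (interval up to 5.58%), 0.222% of tiles with at least 5 in all 4 SOX9 libraries and 0.794% of all tiles. With swapped labels, a processed pseudogene was overlapped by 5 of the 81 tiles for uninjured M with 1 d.p.i. F, by 1 of the 89 for uninjured F with 1 d.p.i. F and by 0 in the other pairs, so that pseudogenes were not limited to gained tiles. In a search against spliced coding transcripts, chosen after the values were seen, 10 gained tiles and 0 lost tiles matched a transcript across exon junctions. These were 9 of the tiles with a pseudogene and a tile in an intron of Tmem132d (chr5:127955001-127956000), which carries a copy of Eif1, a translation initiation factor, that the annotation does not list. Identity ran from 93.7% to 99.8% over 364 to 1003 aligned bases, and the matches crossed 2 to 7 junctions. The matched genes encode ribosomal proteins in 8 of the 10 tiles (Rpl4, Rpl7, Rpl10 at 2 tiles, Rpl11, Rps3a1, Rps4x and Rps20), and the others are Eif1 and the RNA-binding protein gene Hnrnpa2b1. The tenth annotated pseudogene, Gm18517 near Arrdc3, had no such match within its tile, although 37.2% of the pseudogene matched the coding transcript of Crb1, at 80.8% identity over 859 aligned bases and 2 junctions.

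Since a read in an identical stretch can be placed on either copy, the values of the 10 tiles that match a spliced transcript are uncertain. Within such stretches, signal from the copy and from its gene cannot be told apart. How much of each tile this affects was not measured. At Rpl10-ps1 (chr2:105554001-105555000), identical to the Rpl10 transcript over all its 645 bases, the values were 0 (M) and 0.774 (F) in uninjured cords against 9.53 (M) and 27.5 (F) at 1 d.p.i. At Gm9616, a copy of Rps4x (chr13:3299001-3300000), they were 0 (M) and 0.349 (F) against 7.75 (M) and 33.3 (F). Gm10288, a copy of Rpl11 (chr3:146839001-146840000), had 0 (M) and 0.374 (F) against 9.16 (M) and 12.5 (F), and Gm5778, a copy of Hnrnpa2b1 in an intron of Pcdh15 (chr10:73202001-73203000), 0 (M) and 0.310 (F) against 8.11 (M) and 16.1 (F). The F library at 1 d.p.i. was higher than the M library in all 10 of these tiles. Its median there was 15.6 against 5.85 in the M library, a median log2 ratio of 1.19, while in the other 66 gained tiles the medians were 5.90 and 5.78 with a median log2 ratio of 0.01. Of the 11 gained tiles with a value of at least 10 in the F library, 7 were among these 10.

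The copies carried most of the coverage of their tiles. The 9 annotated copies took up 57.0% of the bases of their tiles and 90.2% (M) and 97.2% (F) of the coverage at 1 d.p.i., beside 90.8% (M) and 91.0% (F) in uninjured cords. To show that these sequences lack introns, 60 bases around an exon junction are given for 5 of the tiles, on the strand of the copy in GRCm38. Each is identical to the coding sequence of the gene, and the capitals mark the last 5 bases of an exon and the first 5 bases of the next. They lie at chr5:127955015-127955074 (Eif1, plus strand), chr3:146839054-146839113 (Rpl11, minus), chr13:3299216-3299275 (Rps4x, plus), chr17:32852387-32852446 (Rpl7, minus) and chr3:119709578-119709637 (Rps20, plus). Of the 10 tiles, 7 held such an identical stretch, at 16 junctions in all.
Eif1 junction: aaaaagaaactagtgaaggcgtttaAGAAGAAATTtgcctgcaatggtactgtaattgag
Rpl11 junction: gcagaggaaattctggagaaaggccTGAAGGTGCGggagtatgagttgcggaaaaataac
Rps4x junction: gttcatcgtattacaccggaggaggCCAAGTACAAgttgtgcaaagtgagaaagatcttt
Rpl7 junction: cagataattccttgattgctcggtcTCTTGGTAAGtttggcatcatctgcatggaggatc
Rps20 junction: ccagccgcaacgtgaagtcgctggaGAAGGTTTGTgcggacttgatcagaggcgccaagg

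The same sequences stood out in the controls, which the rule did not use. All 10 tiles that match a spliced transcript held control fragments, against 6 of the other 66 gained tiles and 20 of the 65 lost tiles. The mean control value over these 10 tiles was 0 (M) and 101 (F) in uninjured cords against 231 (M) and 0 (F) at 1 d.p.i., so the F control was the higher of the pair in uninjured cords and the M control at 1 d.p.i. Over all 266 processed pseudogenes with an Rpl or Rps name, the control coverage was 2.25 (M) and 55.7 (F) times the average in uninjured cords, against 115 (M) and 5.97 (F) after injury. The SOX9 libraries had 1.84 (M), 1.36 (F), 2.96 (M) and 7.45 (F) over the same sequences in the same order. Control coverage of the genes themselves, 7 of which lie on chromosomes 1 to 19, varied from gene to gene. With the kb around each start left out, control coverage of the exons of Eif1 was 73.4 (M) and 272 (F) times the average in uninjured cords, against 490 (M) and 0 (F) after injury, where the SOX9 libraries had 8.25 (M), 12.9 (F), 17.3 (M) and 38.4 (F). The M control at 1 d.p.i. was also high over the exons of Rps3a1 (166), Rpl4 (116) and Hnrnpa2b1 (86.1, with 32.3 in the F control). Control coverage was 0 in all 4 libraries over the exons of Rpl7 and Rps20, and at Rpl11 in all but the uninjured F control (15.8). Exons of all transcripts were merged, and leaving out the kb around a start may remove exons that the copies match. The bases left were 2275 (Rpl7), 3331 (Rps20) and 2092 (Rpl11). At the depth of the controls a 0 there says little about the sequence that the copies match. Over the exons of all 7 genes together the controls had 5.19 (M) and 23.9 (F) in uninjured cords against 82.5 (M) and 10.5 (F) after injury. The introns also held control coverage at Hnrnpa2b1, with 23.9 in the uninjured F control, where its exons had 8.31, and 48.0 (M) and 34.1 (F) after injury, at Rps3a1 (39.5) and at Rpl4 (6.19), both in the M control at 1 d.p.i. The controls had only 0.00433 to 0.0209 fragments per tile on average, so that 1 fragment over a few kb gives a high value. Genes, exons and introns are thus not ranked by these values. The copies thus had high values in libraries without SOX9 antibody as well. So did parts of some of their genes, where the fragments behind the values were not counted. The part of this control signal in the gain was not tested. Without the tiles that overlap a processed pseudogene, 66 gained and 65 lost tiles remained.

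Summed over the 76 gained tiles, control coverage was 0 (M) and 1052 (F) mean tiles in uninjured cords and 2362 (M) and 374 (F) after injury. The groups had means of 526 ± 744 and 1368 ± 1406 (SD, n = 2), a ratio of 2.60, and overlapped (exact two-sided permutation test, p = 0.667). Without the M control at 1 d.p.i. the ratio was 0.712. Outside the tiles that match a spliced transcript the sums were 0 (M), 39.3 (F), 55.8 (M) and 374 (F), and the last of these came from only 2 fragments, in Junos and in an intron of Casz1. Both shared their ends with fragments of the F SOX9 library at 1 d.p.i. Over chromosomes 1 to 19, between 53.3% and 65.6% of the fragments of each control shared both ends with a fragment of a SOX9 library, against 0.0179% to 0.0374% after a shift, and the cause was not tested. In gained tiles this held for 2 of 22 fragments in the uninjured F control and 2 of 44 in the M control at 1 d.p.i. With such fragments left out, and each control divided by its new mean tile, the sums over gained tiles were 0 (M) and 2103 (F) in uninjured cords against 5438 (M) and 0 (F) after injury, a ratio of 2.59. In all, 60 of the 76 gained tiles held 0 control fragments, which at the depth of the controls says little about any 1 tile.

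The tiles next to gained tiles, whose own values the rule did not use, were also higher at 1 d.p.i. Neighbouring tiles can share signal, so that the choice of the gained tiles bears on these tiles too. Neighbours were not computed for swapped labels, so nothing about injury is read from them. Over the 152 adjoining tiles the mean value was 1.20 (M) and 1.38 (F) in uninjured cords against 2.40 (M) and 2.36 (F) at 1 d.p.i., so that the groups did not overlap. Group means of 1.29 ± 0.126 and 2.38 ± 0.0245 (SD, n = 2) gave a ratio of 1.85, with p = 0.333 by the exact two-sided permutation test, the lowest p possible with 2 libraries a group. The injured M and F libraries were each above both uninjured ones in 53 of the 152 tiles (34.9%), where 9.91% of all tiles were, and below both in 9, where 11.8% of all tiles were. All tiles here are 2462755, of which 2136900 had coverage in at least 1 SOX9 library. Empty tiles can be neither above nor below, so the shares of all tiles are a low baseline for these neighbours. A fragment can cross the border of a tile, and with fragments that reach into a gained tile left out, a measure added after the values were seen, the ratio was 1.43 and 34 tiles (22.4%) were above. Farther out, in 608 tiles 2 to 5 kb away, the ratio was 1.24 (p = 0.333 in the exact permutation test). The adjoining tiles of lost tiles were lower at 1 d.p.i., and the ratio was 0.731 (p = 0.333 in the exact permutation test).

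The study listed coordinates for 22 mouse elements, and 0 of them overlapped a gained or a lost tile. The elements covered 40 tiles. Of all tiles, 0.00309% were gained and 0.00264% lost, so that the 0 says nothing about the elements. A tile with at least 5 in both libraries at 1 d.p.i. was found at 3 elements, IREN1, IREN5 and IREN21. Over the genome 36139 of 2462755 tiles were as high. In each of the 3 the higher uninjured value was above 1. Among these 3 that value was lowest at IREN1, in an intron of the zinc transporter gene Slc39a14, and nearly the same at IREN5 (3.29). The highest tile of IREN1 had 0 (M) and 3.26 (F) in uninjured cords against 12.9 (M) and 11.1 (F) at 1 d.p.i.

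In a limma fit of the 4 SOX9 libraries over the 726323 tiles with a mean value of at least 1, 40 tiles were higher after injury and 4 lower, with an adjusted p under 0.05. They were 0.00606% of those tested, and 13665 and 12364 tiles had an unadjusted p under 0.05. All 76 gained tiles were tested, each passing the filter through the libraries at 1 d.p.i., and 9 were called higher, where 0.00551% of the tested tiles were called higher. Of the 65 lost tiles, 1 was called lower, near Mbd5, where 0.000551% of tested tiles were called lower. Since this contrast chose the tiles, nothing is read from these counts. Of the 9, 6 match a spliced transcript, and the others are the tiles at Slc10a6 (log2 change 4.20), Ctnna2 (3.48) and Capza3 (3.46). The other 31 tiles called higher each had an uninjured value above 1, and 23 of all 40 overlapped a processed pseudogene. Among these 31, a tile 6091 bp from Sgk1 (chr10:22001001-22002000), named after its values were seen, had 0 (M) and 2.73 (F) in uninjured cords against 16.1 (M) and 11.3 (F) at 1 d.p.i. Results of the fit depended on its settings. With any 1 of the 4 SOX9 libraries left out, or without the mean-variance trend, limma called 0 tiles, with 16128 higher and 17099 lower at an unadjusted p under 0.05 in the latter.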

How the data were processed

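SOX9 CUT&Tag and secondary-only control libraries of uninjured and 1 d.p.i. spinal cord were grouped by the labels, with 2 libraries in each of 4 groups. The authors mapped read pairs with Bowtie2 2.5.4, removed duplicates with Picard 3.4.0 and called peaks with SEACR 1.3. What the authors deposited is coverage, a signal in whole numbers for every library, not scaled for depth. No peak calls were used here.

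Coverage was summed in 1-kb tiles of chromosomes 1 to 19 and divided by the mean tile of the library. Fragments were rebuilt by joining rises and falls of the coverage in order, which may not restore the original pairs. The members and gene lists were chosen with earlier results of these data known. Named tiles were the 10 highest by the lower value at 1 d.p.i., up to 6 within 1 kb of a coding start site, up to 12 near a listed gene, tiles over listed elements, adjoining runs, 3 on each side of each threshold, and the genes nearest to the most gained tiles. Of the tiles beside a threshold, 1 is not reported here. Genes are from GENCODE on GRCm38. Copies were found with BLAST 2.17.0, as matches of at least 200 bases to a spliced coding transcript across a junction at least 10 bases from either end. Tiles were compared in R 4.3.3 by limma 3.58.1, fitted to log2(value + 0.5) with a mean-variance trend and Benjamini-Hochberg adjustment, which understates fold changes of low tiles. Sums over control libraries and adjoining tiles were compared by exact permutation tests. Python 3.11.15, numpy 2.4.6 and scipy 1.17.1 were used. The fit and the tile rule were also run on simulated data, and no outcome of that is given or relied on here. Alternatives covered grid, tile size, scaling, measure, depth, thresholds, repeats, copies, control fragments, pseudocount, filter, libraries, motif window and annotation. Intervals cover counting error only. The p-values measure the spread between these 2 samples a group. In the main limma fit this spread was taken from the trend over all tiles and not from each tile.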

Additional observations from a re-analysis of the deposited data

Results flagged for a closer look

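Over the gained tiles as a whole and over the pseudogenes below, control coverage moved in opposite directions in the M and F samples. Summed over the gained tiles, control coverage was higher by 2362 mean tiles at 1 d.p.i. than in uninjured cords in the M samples and fell by 677 in the F samples. Over processed pseudogenes with an Rpl or Rps name, the log2 ratio of control coverage at 1 d.p.i. over uninjured was 5.68 in the M samples and -3.22 in the F samples. In gained tiles that match no spliced transcript, the sums before and after injury were 0 and 55.8 mean tiles (M) and 39.3 and 374 (F). Control fragments lay in 0 (M) and 2 (F) of these tiles before injury and in 2 (M) and 2 (F) after it. The F control had 45472 fragments before injury and 10664 after it, so that each fragment weighed more in the latter, and no rise is read from these sums. In lost tiles the sums before and after injury were 600 and 306 (M) and 405 and 121 (F). They came from 6 and 6 fragments (M) and from 10 and 1 (F). The M control had 22300 fragments before injury and 51460 after it, so that an equal count gave the lower sum in the deeper library. Each value comes from 1 library a condition, and the difference between M and F was not tested.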

How the results depend on the processing

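The number of gained tiles was within 1.5 times of 76 under 6 of 18 alternatives, and there were more gained than lost tiles in 12 of the 17 alternatives that gave a ratio. The ratio was under 1 on the shifted grid (0.753), with trimmed-mean scaling (0.594, from 57 gained and 96 lost tiles) and by fragment midpoints (26 gained, 39 lost, 0.667). Other counts of gained and lost tiles were 830 and 769 with tiles of 500 bp, 9 and 2 (ratio 4.50) with tiles of 2 kb, 337 and 287 with the SOX9 libraries thinned to the smallest, 352 and 293 with an upper threshold of 4, 7 and 0 with 8, which gives no ratio, 24 and 16 with a lower threshold of 0.5, and 439 and 420 with 2. Leaving out 1 SOX9 library loosens the rule and gave 219 to 2257 gained tiles, 424 to 5560 lost tiles and ratios of 0.349 to 2.84. The ratio was 0.517 without the uninjured M library and 0.349 without the uninjured F library, and 2.29 and 2.84 without the M and the F library at 1 d.p.i. Alternatives chosen after seeing the data left 66 gained and 65 lost tiles without processed pseudogenes and 60 and 45 without tiles holding control fragments. Of the 76 gained tiles, 53 also passed with trimmed-mean scaling, 15 by midpoints and 11 both ways. These 11 were the tiles near or in Fgf2, Pcdh18, Stxbp3, Col27a1, Usp24, Slc10a6, Sparc and Habp2, and 3 that match a spliced transcript.

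Limma called 44 tiles, and 9 with trimmed-mean scaling, 109 with a pseudocount of 0.1 (87 higher, 22 lower), 9 with a pseudocount of 2, 11 without the filter on low values, and 67 with a mean of at least 2 (58 higher, 9 lower). It called 0 without the trend (16128 higher and 17099 lower at an unadjusted p under 0.05), 0 with all 8 libraries in the fit (60294 and 52671), and 0 to 0 with any 1 SOX9 library left out (3472 to 18139 higher and 10715 to 16878 lower), where the lone library is assumed to vary like the other pair. Without processed pseudogenes, chosen after seeing the data, 21 of the calls were left. The causes were not tested. With M and F as a replicate block limma called 9 tiles, all higher, 3 of them gained. This block stands for sex, since samples of the same sex came from different animals, and the correlation of their deviations was -0.03 over 726323 tiles.

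The ratio of control coverage was 2.59 without control fragments that share both ends with a SOX9 fragment. It ran from 0.712, without the M control at 1 d.p.i., to 4.49 with 1 control left out, and without the uninjured F control there is no value because the other uninjured control is at 0. The value was 10.9 without the tiles that match a spliced transcript. Only 0 (M) and 2 (F) of the remaining tiles held control fragments before injury, and 2 (M) and 2 (F) after it. With so few fragments in controls of unlike depth, this value says little. The ratio of the adjoining tiles kept its direction under 8 alternatives.

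Within 200 bp of the highest coverage, the shares of gained tiles with a motif were 7.89% (AP-1), 27.6% (SOX), 1.32% (STAT), 3.95% (CEBP), 15.8% (RUNX), 5.26% (PU.1 and ETS), 64.5% (E-box) and 1.32% (AP-1 and SOX), as a shorter window holds fewer matches. With soft-masked bases hidden they were 68.4% (SOX), 43.4% (RUNX) and 88.2% (E-box), beside 62.3%, 37.8% and 87.9% of all tiles. With a window of 5 kb around start sites 13.2% of gained tiles and 11.5% of all tiles counted as promoter, and with all genes 21.1% did and 34.2% were intergenic. Depth limits every tile, since a value of 5 is about 5 fragments at 1 d.p.i.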
